A study of Mus musculus with 9 samples.

Results

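The replication-dependent H3 and H4 histone genes described here are Hist1h3a, Hist1h3h, Hist1h4b, Hist1h4j and Hist1h4k, 5 genes of the Hist1 cluster on mouse chromosome 13. They were chosen by name among the 160 genes that the authors' table of P-Por-Os against control lists as higher after P-Por-Os, and the 3 tables of the series hold 217 distinct genes in all. Every gene of that table has a log2 fold above 1 and an unadjusted p under 0.05 on the same 6 libraries, so what follows describes the size and pattern of a difference that was used to choose the genes, and no test of it is given. A further H3 gene of the table, Hist1h3b, is not among the 5 and is set beside them.

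RNA came from wild-type Hepa1-6 cells, a mouse hepatocarcinoma line kept in DMEM with foetal bovine serum. One group of 3 libraries received P-Por-Os, a material that the series title presents as an artificial enzyme activated by ultrasound, at 25.57 µg/mL. Another 3 received the same dose with ultrasound (P-Por-Os+US), and 3 served as control: their labels give no treatment, while the series description names PBS. The time of treatment is not given in the sources used here. No label ties the 3 libraries of a condition to separate cultures, so SDs may show technical spread only.

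Cells need large amounts of the core histones when they copy their DNA, because H3 and H4 form the tetramer at the centre of each new nucleosome before H2A and H2B join. Most of this supply comes from many near-identical genes that lie in clusters, have no introns and are transcribed mainly in S phase. Their mRNAs are known to end in a short stem-loop, bound by SLBP, in place of a poly(A) tail. H3.1 and H3.2 are the replication-dependent forms of H3, and all H4 genes encode the same protein.

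Levels are given as RPKM, reads scaled by exon length and by library total. All 5 genes were higher after P-Por-Os, with no overlap between the libraries of the groups. The authors' table lists 1.05 percent of the 15270 genes tested as higher, and 159 of its 160 genes have groups that do not overlap, so nothing is read from the count of 5. The ratios of mean RPKM, P-Por-Os over control, lay between 2.46 and 2.72, although the level in P-Por-Os libraries differed 32.6-fold between the lowest and the highest gene. In bulk RNA, a larger share of cells that carry histone mRNA and more of it per cell cannot be told apart.

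Of the H4 genes, Hist1h4k was the highest, and also the highest of all 5. It had 606, 687 and 581 RPKM in the P-Por-Os libraries, against 197, 266 and 297 RPKM in the control libraries. Its mean was 625 ± 55.3 RPKM after P-Por-Os and 254 ± 50.9 RPKM in control (SD, n = 3 each), a log2 ratio of 1.30. The groups were apart: the lowest P-Por-Os library was 1.96 times the highest control library.

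Hist1h4b, the second H4 gene by RPKM, had 102, 102 and 88.9 RPKM after P-Por-Os, against 20.7, 38.2 and 49.2 RPKM in control. The groups did not overlap, but the control libraries were spread over a 2.37-fold range, the widest of the 5 genes. Means were 97.8 ± 7.72 RPKM after P-Por-Os and 36.0 ± 14.3 RPKM in control (SD, n = 3 each), with a log2 ratio of 1.44, the largest of the 5.

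Hist1h4j encodes the same H4 protein from a longer annotated transcript. It had 50.6, 47.9 and 51.3 RPKM after P-Por-Os, against 13.0, 19.9 and 24.0 RPKM in control. The P-Por-Os libraries were within a 1.07-fold range and all lay above the control libraries. Means were 49.9 ± 1.77 RPKM after P-Por-Os and 19.0 ± 5.55 RPKM in control (SD, n = 3 each), a log2 ratio of 1.40.

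Of the H3 genes, Hist1h3h, which encodes H3.1, had 74.4, 83.7 and 78.2 RPKM after P-Por-Os, against 20.7, 32.7 and 34.8 RPKM in control. Its means were 78.7 ± 4.69 RPKM after P-Por-Os and 29.4 ± 7.59 RPKM in control (SD, n = 3 each), with a log2 ratio of 1.42. No library of one group fell within the range of the other.

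Hist1h3a, also a gene for H3.1, was the lowest of the 5. It had 16.9, 20.4 and 20.2 RPKM after P-Por-Os, against 5.12, 8.49 and 8.68 RPKM in control, again without overlap. Means were 19.2 ± 1.94 RPKM after P-Por-Os and 7.43 ± 2.00 RPKM in control (SD, n = 3 each), a log2 ratio of 1.37. Hist1h3b, a gene for H3.2, had 26.0, 29.2 and 24.0 RPKM after P-Por-Os, against 8.78, 10.3 and 14.5 RPKM in control, and a log2 ratio of 1.24, below those of the 5 genes.

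**Figure D1:**
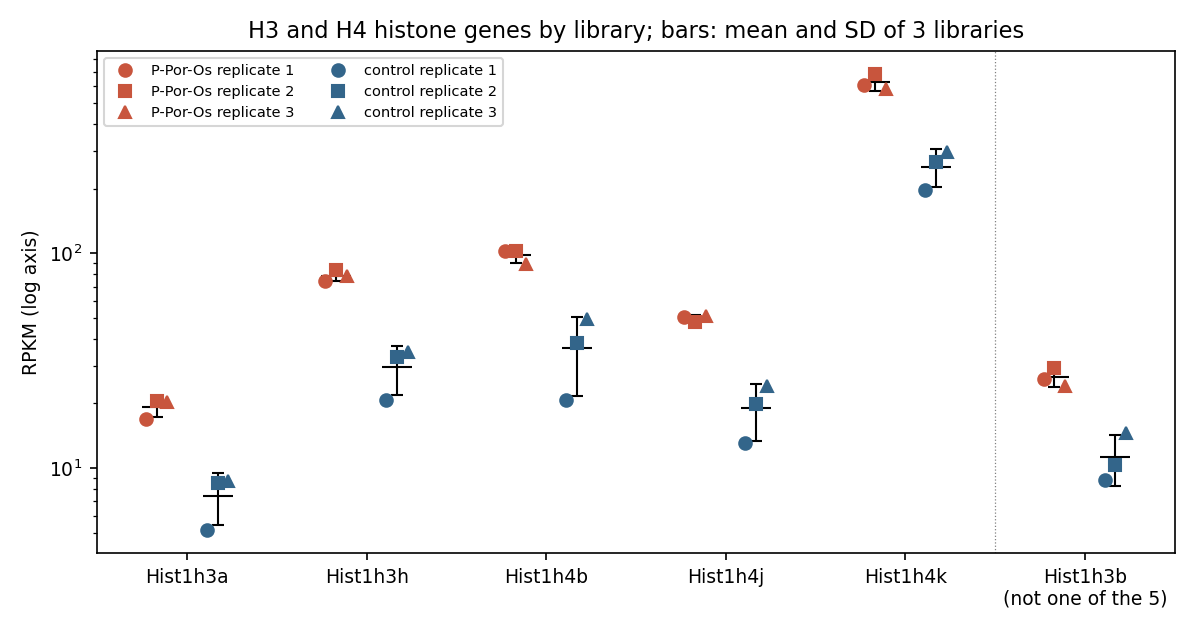
RPKM (log axis) of the 5 H3 and H4 genes and of Hist1h3b in each P-Por-Os library (left, red) and control library (right, blue), with the mean and SD of 3 libraries in black. In each gene the 3 P-Por-Os points lie above the 3 control points, and control replicate 1 is the lowest point.

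In the authors' deposited table the log2 fold was 1.34 for Hist1h4b, 1.31 for Hist1h3h, 1.29 for Hist1h4j, 1.26 for Hist1h3a and 1.19 for Hist1h4k, and 1.13 for Hist1h3b. The lowest fold in the table was 1.00, and genes below it are not in the tables. Of 160 genes the 5 ranked between 56 and 94 by fold, near the middle of the table. In the authors' deposited table the edgeR adjusted p ran from 3.95e-06 for Hist1h3a to 0.0159 for Hist1h4b, the gene whose control libraries were most spread, and both belong to the values on which the genes were selected.

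Levels are per kilobase of annotated exon and are ordered here on that scale only. After P-Por-Os the order was Hist1h4k, Hist1h4b, Hist1h3h, Hist1h4j and Hist1h3a, and the ranges of neighbours in that order did not overlap. In control the order of the means was the same, but the ranges of Hist1h4b, Hist1h3h and Hist1h4j overlapped, and in control replicate 1 Hist1h4b and Hist1h3h were level at 20.7 RPKM. Such levels depend on the annotated length, which differs between the genes as described further on.

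The spread was unequal between the groups. The coefficient of variation (SD over mean) of the 5 genes was 3.55 to 10.1 percent in P-Por-Os libraries and 20.1 to 39.8 percent in control libraries. This was not particular to them: over all 160 listed genes the median was 9.07 percent in P-Por-Os and 20.3 percent in control. For the 13 listed H2A and H2B genes it was 6.23 percent in P-Por-Os and 19.4 percent in control. Control replicate 1 was the lowest control library for all 5 genes, from 29.9 percent below the mean of the other control libraries for Hist1h4k to 52.5 percent for Hist1h4b. Its log2 deviation from the control mean of a gene was -0.34 to -0.71, and that of control replicate 3 was 0.25 to 0.54. The values rest on 103 to 7696 reads per gene and library, with a counting error of 9.85 to 1.14 percent. Control replicate 1 was also the lowest control for 90 of the 139 listed genes without a histone name. Their median log2 ratio of it to the mean of the other control libraries was -0.32, against -0.75 for the 5 genes. Of the 13 listed H2A and H2B genes, 12 had it as the lowest control, with a median of -0.50. The 2 linker H1 genes did too, with a median of -0.28. All these genes were listed for lower levels in control, which favours a low control library. Without control replicate 1, mean RPKM ratios were 2.24 for Hist1h4b, 2.33 for Hist1h3h, 2.28 for Hist1h4j, 2.23 for Hist1h3a and 2.22 for Hist1h4k. The part of that library in the size of the difference beyond these values was not tested.

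**Figure D2:**
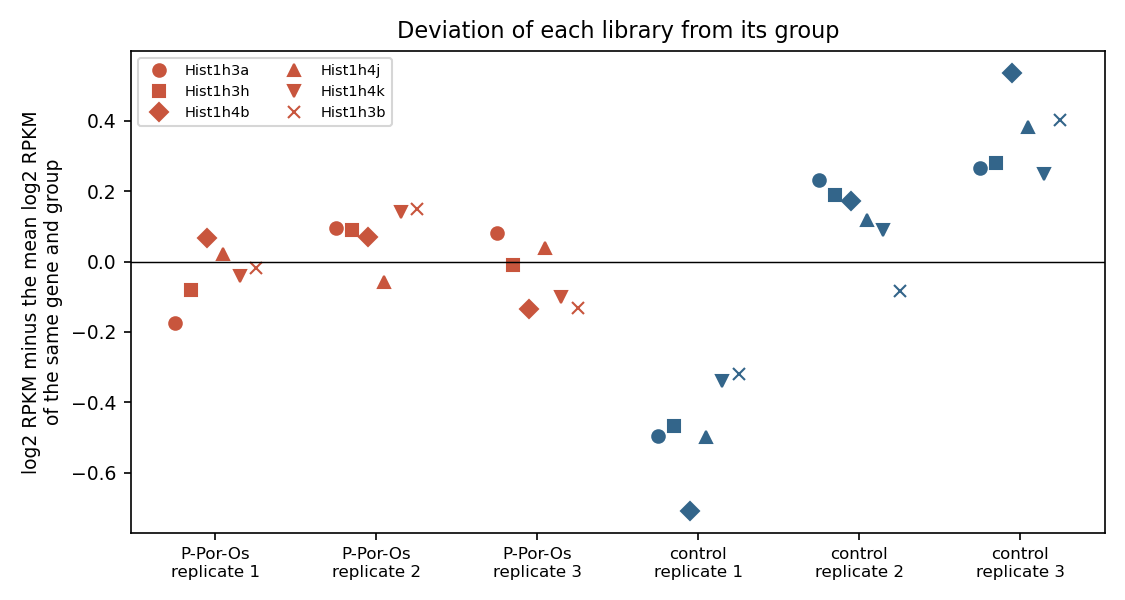
Log2 RPKM of each H3 or H4 gene minus the mean log2 RPKM of the same gene in the same group, by library; P-Por-Os in red and control in blue. For the 5 genes, P-Por-Os points lie between -0.17 and 0.14, those of control replicate 1 between -0.71 and -0.34 and those of control replicate 3 between 0.25 and 0.54; crosses are Hist1h3b.

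The proportions among the genes overlapped between the groups. Their summed RPKM was 850, 941 and 820 in the P-Por-Os libraries, against 257, 365 and 414 in the control libraries, with means of 870 ± 63.3 after P-Por-Os and 345 ± 80.2 in control (SD, n = 3 each) and a ratio of 2.52. As CPM, reads scaled by library total but not by length, the sum was 315 ± 19.9 after P-Por-Os and 124 ± 30.0 in control (SD, n = 3 each). Hist1h4k made up 71.7 ± 1.10 percent of the summed RPKM after P-Por-Os and 73.8 ± 2.65 percent in control, and Hist1h4b 11.2 ± 0.669 percent after P-Por-Os and 10.1 ± 1.93 percent in control (SD, n = 3 each). The share of each of the 5 genes overlapped between the groups. Shares of RPKM depend on the annotated lengths and on the split of reads among near-identical copies, both described further on.

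The ratio of H4 to H3, taken as summed RPKM of the 3 H4 genes over that of the H3 pair, was 8.31, 8.04 and 7.34 in P-Por-Os libraries, against 8.94, 7.87 and 8.51 in control libraries. These ranges overlap. They compare the genes listed here only, and not the whole H3 and H4 supply of the cell. They also depend on the annotated lengths and on the split of reads among copies. Within the H3 pair, Hist1h3h was 4.12 ± 0.261 times Hist1h3a after P-Por-Os and 3.97 ± 0.105 times in control (SD, n = 3 each).

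**Figure D3:**
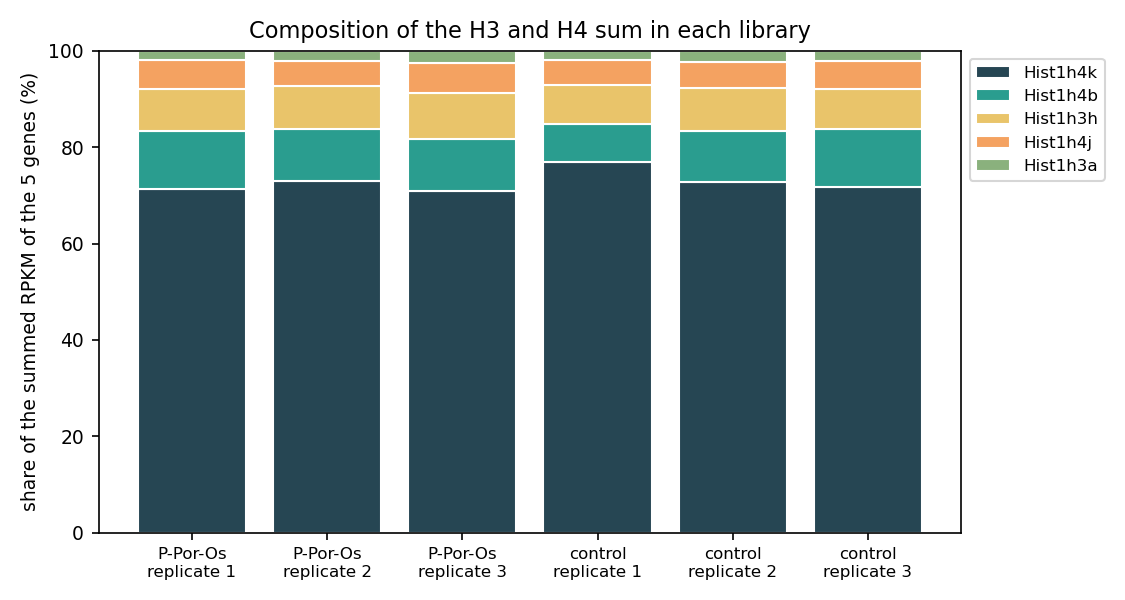
Share of each gene in the summed RPKM of the 5 H3 and H4 genes, in percent, for the 3 P-Por-Os and the 3 control libraries. Hist1h4k holds 70.9 to 76.8 percent of the bar in every library and the order of shares differs little between the groups.

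How far the copies can be told apart depends on their sequence. The beginnings of the coding regions are shown because within them the copies are distinguished only by the bases in capitals. These are the first 120 coding bases of the H4 genes (GRCm38), 5′ to 3′, with capitals where a gene differs from Hist1h4k:
Hist1h4k, chr13:21750386-21750505 (-): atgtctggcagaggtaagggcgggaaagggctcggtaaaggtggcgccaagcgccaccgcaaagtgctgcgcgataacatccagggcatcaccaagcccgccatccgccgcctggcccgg
Hist1h4j, chr13:21735096-21735215 (+): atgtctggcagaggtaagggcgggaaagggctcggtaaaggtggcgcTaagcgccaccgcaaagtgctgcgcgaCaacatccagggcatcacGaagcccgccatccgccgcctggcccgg
Hist1h4b, chr13:23757021-23757140 (+): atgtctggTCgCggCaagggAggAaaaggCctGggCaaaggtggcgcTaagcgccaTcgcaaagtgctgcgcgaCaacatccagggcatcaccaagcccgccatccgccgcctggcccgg

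Over the whole coding region of 312 bases, Hist1h4j differed from Hist1h4k at 5 bases and Hist1h4b at 14, and the longest stretches without a difference were 206 and 230 bases. The H3.1 genes were as close, with 5 differences between Hist1h3a and Hist1h3h in 411 coding bases. Their first 90 coding bases, with capitals where Hist1h3a differs from Hist1h3h, were:
Hist1h3h, chr13:21717659-21717748 (+): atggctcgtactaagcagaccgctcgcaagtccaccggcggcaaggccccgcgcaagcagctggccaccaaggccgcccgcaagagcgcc
Hist1h3a, chr13:23762264-23762353 (-): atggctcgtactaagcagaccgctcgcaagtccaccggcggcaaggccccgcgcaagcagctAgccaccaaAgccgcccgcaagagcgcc

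Of the words of 31 bases in each GENCODE M21 transcript model, 70.6 percent were found in no other gene for Hist1h4j, 41.1 percent for Hist1h3a, 40.3 percent for Hist1h4b, 13.8 percent for Hist1h4k and 5.77 percent for Hist1h3h. Each of the 5 shared words with 11 others of the 25 H3 and H4 genes. The closest were not always listed ones: Hist1h3h shared 85.3 percent of its words with Hist1h3i, which is not in the table. How the authors placed reads that fit several copies is not given in the sources used here. The split of reads among copies is therefore uncertain. By these words it is most uncertain for Hist1h3h and Hist1h4k, whose models hold the coding region alone. Reads were pairs of 150 bases, so shares of 31-base words are not shares of reads that can be placed. The ratios of Hist1h4j, whose words are mostly its own, and of Hist1h4k, whose words are mostly shared, were 2.63 and 2.46. Where reads fell within a model was not seen, and the coding regions of these genes are nearly alike. So these ratios cannot show what shared reads do to a ratio.

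**Figure D4:**
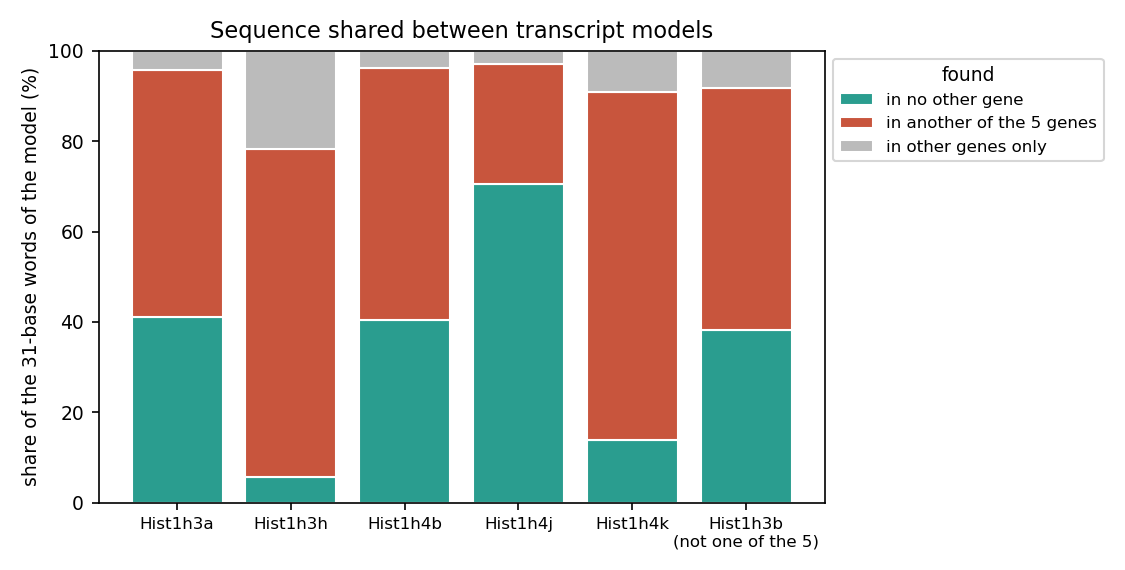
Share of the 31-base words of each transcript model found in no other gene, in another of the 5 H3 and H4 genes, or in other genes only, in percent. Hist1h4j has the largest share of words of its own (70.6 percent) and Hist1h3h the smallest (5.77 percent).

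The transcript models also differ in how far they reach past the stop codon, where the stem-loop lies. It is shown for the models that contain it, with the 6 bases of each stem arm in capitals and the 4 bases of the loop in lower case:
Hist1h3a, chr13:23761890-23761905 (-): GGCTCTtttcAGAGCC
Hist1h4b, chr13:23757366-23757381 (+): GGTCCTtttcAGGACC
Hist1h4j, chr13:21735437-21735452 (+): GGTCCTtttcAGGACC

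The stem-loop began 37, 33 and 29 bases after the stop codon in Hist1h3a, Hist1h4b and Hist1h4j. Hist1h4b and Hist1h4j had the same 16 bases, and Hist1h3a had those of Hist1h3b. The models of Hist1h3h (411 bases) and Hist1h4k (312 bases) consist of the coding region alone and hold no sequence in which it could be looked for. A match was found in 49 of 21877 protein-coding genes (0.224 percent), of which 44 had histone names, and in 19 of the 25 H3 and H4 genes.

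Hist1h4j was annotated beyond its stem-loop for another 385 bases. The last 24 of its 774 bases are shown because they hold the poly(A) signal AATAAA, in capitals, which is absent after the stop codon in the models of Hist1h3a and Hist1h4b:
Hist1h4j, chr13:21735814-21735837 (+): cAATAAAattctgAATAAAactgc

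RPKM divides reads by these lengths, so the level of Hist1h4j is divided over 774 bases and that of Hist1h4k over 312. In reads, Hist1h4b and Hist1h4j were nearly level, at a ratio of 1.01 ± 0.106 after P-Por-Os and 0.951 ± 0.120 in control (SD, n = 3 each). In RPKM the ratio was 1.96 ± 0.206 after P-Por-Os and 1.85 ± 0.234 in control (SD, n = 3 each). The protocols name a kit for mRNA libraries and another for depletion of ribosomal RNA, and which one was used for these libraries is not given. The levels of RNAs without a poly(A) tail depend on that choice, and its part in the values was not tested.

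Hist1h4b shares its locus with another listed gene. The antisense model 4930558J22Rik, on the minus strand of chromosome 13 from 23755822 to 23757620, has 223 exonic bases inside Hist1h4b, which is on the plus strand. It was at 36.9, 36.8 and 32.0 RPKM after P-Por-Os, against 7.49, 13.8 and 17.7 RPKM in control. Its ratio to Hist1h4b averaged 0.360 over the 6 libraries, varying by 0.171 percent (SD over mean), and the log2 folds in the authors' deposited table were 1.34 for both. The strand setting of the counting is not given in the sources used here, so the reads of Hist1h4b and of this model cannot be told apart and their rows are not separate measurements.

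All 5 genes lie in the Hist1 cluster, which falls into 2 blocks 1487 kb apart. Hist1h3h (21717659 to 21718069, plus strand), Hist1h4j (21735064 to 21735837, plus strand) and Hist1h4k (21750194 to 21750505, minus strand) are in a block of 24 Hist1 genes of which 9 were listed. Hist1h4b (23757013 to 23757409, plus strand) and Hist1h3a (23761853 to 23762386, minus strand) are in the other block, with 10 of 31 listed (GRCm38). The 5 genes are among those listed, and 1.05 percent of the 15270 genes tested were listed. Nothing is read from these counts. The Hist1 genes closest to the 5 were Hist1h4a (for Hist1h3a and Hist1h4b), Hist1h2ai, Hist1h2bm and Hist1h2ak, and none of these was in the table. Nearest among the listed histones were Hist1h1a, a linker histone gene 1.28 kb from Hist1h3a, and Hist1h2bl, an H2B gene 1.52 kb from Hist1h3h, with log2 ratios of 1.51 and 1.45.

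**Figure D5:**
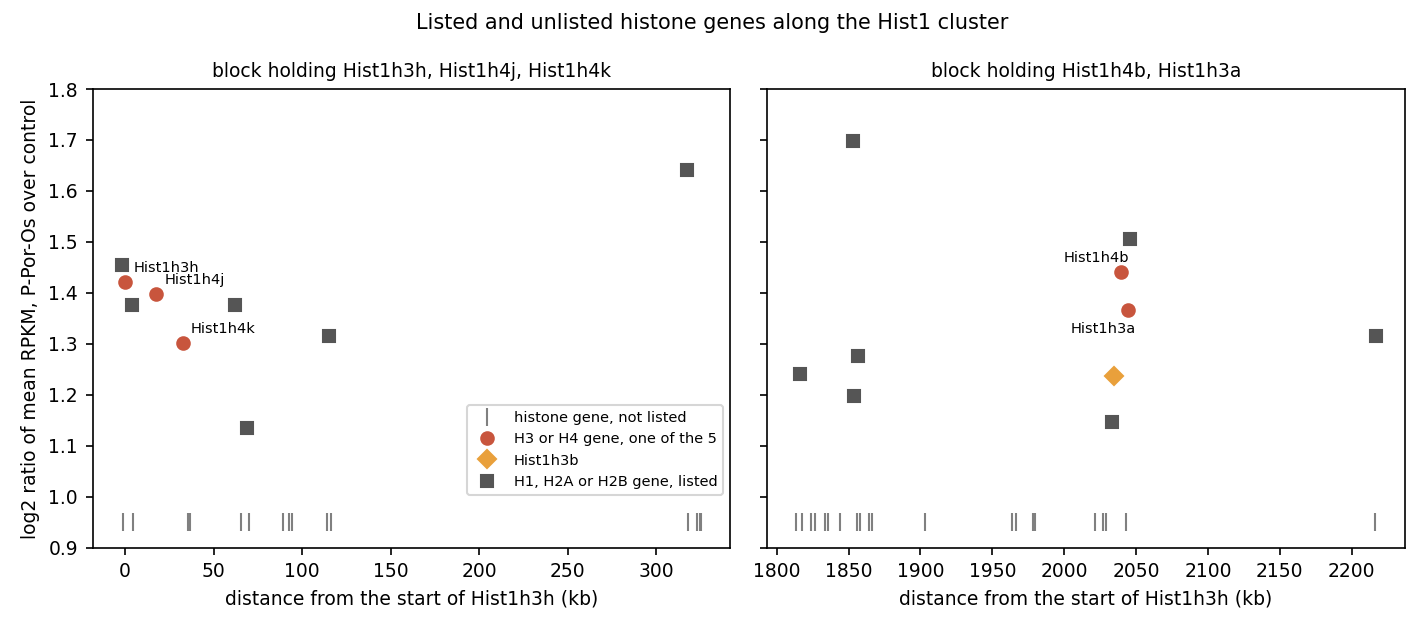
Histone genes along the Hist1 cluster by distance in kb from the start of Hist1h3h, with the log2 ratio of mean RPKM, P-Por-Os over control, for listed genes. Red circles are the 5 H3 and H4 genes, between 1.30 and 1.44; grey ticks at the bottom mark genes that are not listed and carry no value.

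Promoter sequence from RefSeq (GRCm38.p6) was matched by position for 4 of the 5 genes, Hist1h3a not among them. It is shown to compare the genes, and any link to the ratios was not tested. The stretches are 100 bases that end with the TATA-like hexamer, on the gene's strand. Capitals mark that hexamer, GGTCCG, the core of the H4 promoter element that HINFP is known to bind in human cells, and CCAAT, each searched on both strands:
Hist1h4k, chr13:21750564-21750663 (-): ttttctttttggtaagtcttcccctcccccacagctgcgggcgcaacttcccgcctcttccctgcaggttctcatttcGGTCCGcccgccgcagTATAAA
Hist1h4j, chr13:21734938-21735037 (+): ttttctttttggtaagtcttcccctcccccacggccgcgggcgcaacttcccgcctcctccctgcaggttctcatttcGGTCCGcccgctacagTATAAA
Hist1h4b, chr13:23756864-23756963 (+): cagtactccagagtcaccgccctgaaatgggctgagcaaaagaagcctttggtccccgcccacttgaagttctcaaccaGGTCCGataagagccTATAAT
Hist1h3h, chr13:21717503-21717602 (+): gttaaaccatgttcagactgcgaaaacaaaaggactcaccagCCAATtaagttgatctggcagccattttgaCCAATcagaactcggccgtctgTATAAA

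Hist1h4k and Hist1h4j differed at 5 of the 100 bases, although they lie 14.4 kb apart on opposite strands. GGTCCG was in the 300-base windows of the 3 H4 genes and not in that of Hist1h3h, and in 8.25 percent of 32851 RefSeq windows. CCAAT was in the window of Hist1h3h and in 37.4 percent of all windows, and TATAAA in those of Hist1h3h, Hist1h4j and Hist1h4k and in 13.6 percent of all. None of the matches shown overlap.

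Of the list of 25 H3 and H4 genes, 6 were listed as higher after P-Por-Os, the 5 genes and Hist1h3b, where 1.05 percent of all genes tested were listed. The 5 were chosen from that table, so nothing is read from the count. Values for the other 19 are not in the table, and a gene can be missing because its fold was smaller, because its p was larger or because it was not tested. The 13 listed H2A and H2B genes had a median log2 ratio of 1.32, the 5 H3 and H4 genes 1.40, the linker histone pair 1.44 and all 160 listed genes 1.35.

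Genes that serve histone supply or DNA copying were looked for in the same table, which lists 1.05 percent of the 15270 genes tested. The counts that follow are near that share and are no result about these lists. None of 21 genes for transcription and processing of histone mRNA was listed, among them Slbp and Npat, and none of 17 chaperones and acetylating factors of H3 and H4, 11 replacement histones, 8 checkpoint genes or 10 mitotic genes. Of 36 genes of S phase and DNA synthesis, 1 was listed: Rrm2, the small subunit of ribonucleotide reductase, which makes DNA precursors. It had 16.4, 16.8 and 17.5 RPKM after P-Por-Os, against 6.60, 7.49 and 8.64 RPKM in control, with a log2 fold of 1.04 in the authors' deposited table. A gene that is not listed is not shown to be unchanged. None of 13 hepatocyte and hepatoma markers was in the tables, and as these hold selected genes only, the cell type could not be checked against them.

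The comparison of profiles took the 96 other listed genes that averaged 1 RPKM or more. Those most like the mean profile of the 5 over the 6 libraries were Hist1h2ae, Hist1h2ah, Gm44394, Gm44390 and Hist1h2bl, with Pearson r of log2 RPKM from 0.997 to 0.998. Because the libraries fall into groups that the selection set apart, r was also taken on deviations from the group means, where Gm44492, Hist2h2ac, Hist1h2ae, Gm44394 and Clca3b came highest, from 0.988 to 0.996. The 5 genes themselves ran from 0.951 to 0.992 on that measure, against a mean profile that contains them. These values share the libraries and the depth, and control replicate 1 lies farthest from the other libraries of its group in the 5 genes. Gm44394, Gm44390 and Gm44492 are models annotated as miRNA genes that lie wholly inside Hist1h2ae, Hist1h2ah and Hist2h2ac on the opposite strand, and with the strand setting not given their reads cannot be told apart from those of the histone genes. Clca3b, a chloride channel accessory gene, is no histone gene.

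The P-Por-Os+US libraries have tables of their own, against control and against P-Por-Os. None of the 5 genes, and none of the 25 H3 and H4 genes, was listed as higher in either, where 0.403 percent of 15142 and 0.179 percent of 15074 genes were listed. Those tables hold selected genes only and so give no values of the 5 genes in the P-Por-Os+US libraries. Whether their levels with ultrasound differ from those in P-Por-Os or control libraries was not tested.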

How the data were processed

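Stranded libraries were made from total RNA and sequenced as read pairs of 150 bases, per the labels' protocols. The submitters' processing notes name GRCm38, edgeR 3.12.1, Subread 1.5.1 with featureCounts, and fastp 0.23.4. No aligner or annotation is named, and the handling of reads that fit several places is not given in the sources used here. The authors deposited RPKM per library, with log2 folds and log2 CPM, an F score, and p-values with adjusted values, per the file headers. In the values, no log2 fold is below 1 and no p reaches 0.05. The log2 folds lay -0.12 (median) from the log2 ratios of mean RPKM.

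The tables of P-Por-Os+US against control and against P-Por-Os were read for the presence of genes only. Groups came from the labels, and columns were matched to samples by group and number. RPKM times exonic length (GENCODE M21) fell on whole reads at library totals of 35152750 to 37667466, and of those below 400 reads 88.4 to 92.1 percent came within 0.05 of a whole number. At these totals all values of the 5 genes were whole within 0.0128. These reads state depth, and no count test was run. The number of genes tested came from the ratio of p to adjusted p. Both steps were checked on simulated data.

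Means, SDs and ratios were computed with pandas 2.3.3 in Python 3.11.15. The 5 genes, the gene lists and the measures were chosen with earlier results of these data known. The text names the 5 genes, other listed H3 and H4 genes, listed members of the other lists, the 5 genes most alike by each of 2 measures, and listed genes that overlap a named gene or lie nearest to it. Neighbouring histone genes, Hist1h3i, Slbp and Npat were named outside that rule. With 3 libraries against 3, an exact two-sided permutation test cannot give a p under 0.1.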

Additional observations from a re-analysis of the deposited data

How the results depend on the processing

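The 6 H3 and H4 genes listed as higher became 0 at a minimum log2 fold of 1.5, and 0 at one of 2, in the authors' deposited table, where their highest fold is 1.34. They stayed 6 with an adjusted p under 0.05 and with a minimum mean of 1 or 10 RPKM. Leaving out each library gave 5 to 6 genes, the 5 without control replicate 1, when Hist1h3b came to 0.97 on the authors' log2 scale. The log2 ratio of the summed RPKM, 1.33, ran from 1.16 without control replicate 1 to 1.48 without control replicate 3, and was 1.22 as a ratio of medians and 1.21 on the authors' scale. As a difference of mean log2 values it was 1.36, both without a pseudocount and with a pseudocount of 1 or 0.1. Of 77 alternative values for the 5 genes, their sum and the count of listed genes, 75 stayed within the spread of the libraries or 1.5 times the count. That number leaves out the block described next and the overlap of groups without a library, which could not give a value of their own. Groups that do not overlap cannot come to overlap when a library is left out. The 77 still hold ratios that could hardly leave the spread. These are the ratios without 1 of 3 libraries and those shifted by a constant to the authors' scale. So the 75 say little about how stable the ratios are.

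Replicate numbers 1 to 3 recur in each group. Over 80 listed genes without a histone name, deviations of libraries with equal numbers had r from -0.0075 to 0.239, and for 3 of 6 libraries the equal number gave the highest r. The 80 genes include models that overlap histone genes on the opposite strand. These values cannot exclude that equal numbers share a batch, because the genes were selected and each group has 3 libraries. Equal numbers were not taken as pairs. A replicate block, the mean of same-numbered log2 ratios, gave 1.36 for the sum, which with 3 libraries against 3 equals the difference of mean log2 values by construction and says nothing about pairing. No paired test was run, because the contrast had chosen the genes.

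Depth limits Hist1h3a most, at 103 reads in control replicate 1. The split of reads among copies was not tested.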
